A study of Mus musculus with 2 samples.

Results

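Macrophages of the mouse liver were picked out in 2 tissue sections by their counts of 6 marker transcripts. A kept cell had at least 10 counts over 500 genes and a volume of at least 50 in the deposited units, and a member had in addition at least 3 counts summed over Clec4f, Adgre1, Csf1r, Spic, Cx3cr1 and Cd68. By this rule 325 of 25499 kept cells were members. Section 1 held 257 members among 9209 kept cells, and section 2 held 68 among 16290. The members were chosen by measured values, their counts of these 6 genes, so the 6 marker genes and the number of members are described here with no test.

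Both sections are liver, and the labels place them in 1 group as replicates 1 and 2 with the tag 2d, which was not interpreted. They were measured by MERFISH, which reads single RNA molecules by repeated imaging in thin frozen tissue and assigns them to segmented cells. The labels used here assign no genotype, strain, age or treatment to either section, and they leave unsaid if 1 animal or 2 gave the tissue. The design text of the series, by contrast, speaks of treated mice with liver metastases, which the labels of these sections do not mention, so it stays unknown here whether either liver held a tumour or was treated. All comparisons were therefore made between cells of the same section, and no condition was compared.

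Kupffer cells are the resident macrophages of the liver. They sit in the sinusoids, take up particles, aged red cells and bacteria from portal blood, and depend on signalling through the receptor encoded by Csf1r. In mice Clec4f, a C-type lectin gene, marks Kupffer cells, while monocyte-derived and capsular macrophages share Adgre1, Csf1r, Cx3cr1 and Cd68 with them or with one another.

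Csf1r was the most widely detected of the 6 genes. It had at least 1 count in 237 of 257 members of section 1 (92.2%, exact Clopper-Pearson 95% interval 88.2 to 95.2) and in 52 of 68 members of section 2 (76.5%, 64.6 to 85.9). Members held 880 and 116 counts of Csf1r, with at most 15 and 4 in a single cell. It was also the gene that most often met the rule unaided, with 157 members of section 1 and 18 of section 2 reaching 3 counts by Csf1r alone.

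Clec4f was found in 65 members of section 1 (25.3%, 20.1 to 31.1) and in 33 of section 2 (48.5%, 36.2 to 61.0). The label of Kupffer cells thus rested on the defining marker in 98 members, and the remaining 192 and 35 had no Clec4f count. Among members with the gene the median was 2 counts in section 1 and 3 in section 2, and the highest cells held 13 and 10. By Clec4f alone 31 and 17 members reached the rule. Members of section 1 had more counts per cell. When every member was thinned to 10 counts, 9.14% in section 1 and 39.0% in section 2 were expected to show Clec4f. The rule was not applied again after thinning. Rule counts made up a median of 6.14% of a member's counts in section 1 and 18.75% in section 2. The part of depth in the order of the sections was therefore not tested.

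Adgre1, which encodes the surface protein F4/80, was detected in 122 members of section 1 (47.5%, 41.2 to 53.8) and 12 of section 2 (17.6%, 9.47 to 28.8). Spic, a transcription factor gene of red pulp macrophages and other iron-handling macrophages, was detected in 38 and 5 members. Cx3cr1, the fractalkine receptor gene, was detected in 50 and 6 members, and Cd68, which encodes a lysosomal membrane protein, in 49 and 12. At this depth a count of 0 does not show that a cell lacks the transcript.

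**Figure D1:**
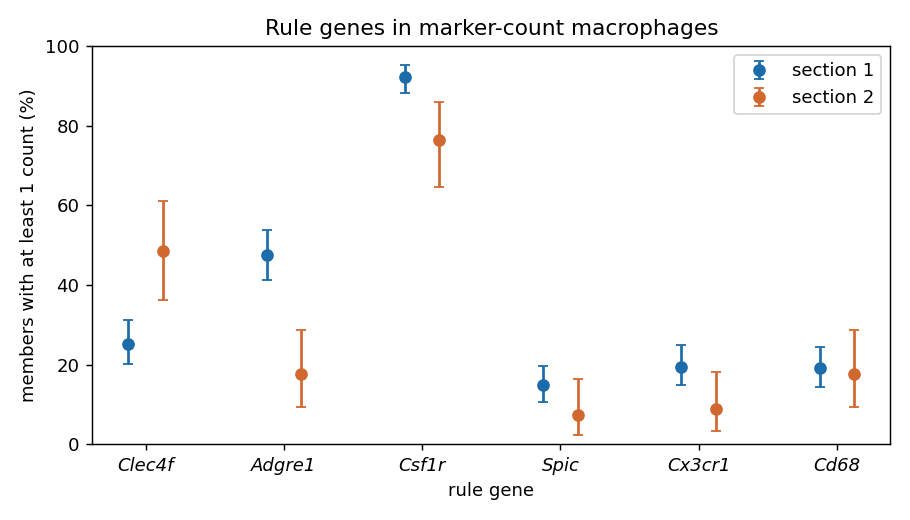
Percentage of members with at least 1 count of each rule gene (vertical axis; genes along the horizontal axis), by section, with exact 95% binomial intervals for counting error. Csf1r stands highest in both sections at 92.2% and 76.5%, and Clec4f is the only gene whose share is higher in section 2, at 48.5% against 25.3% in section 1.

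Most members carried few different markers. A single rule gene made up the count in 67 members of section 1 and 24 of section 2, and 2 rule genes in 109 and 37. None held all 6. Members with Clec4f also had Csf1r in 49 of 65 cells in section 1 and 17 of 33 in section 2. Cx3cr1 was present in 4 of 65 Clec4f-positive members against 46 of 192 Clec4f-zero members in section 1, and in 0 of 33 against 6 of 35 in section 2. Since Clec4f-zero members had to meet the rule with the other 5 genes, these shares were partly set by the rule.

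Membership moved with the depth of a cell. Members had a median of 83 counts in section 1 and 20 in section 2, against 26 and 15 in other kept cells. Of kept cells with 10 to 19 counts 0.315% were members in section 1 and 0.291% in section 2, and of those with 100 or more 13.4% and 10.0%. The last share of section 2 rested on 1 of 10 cells. At the threshold itself, cells with 3 rule counts had median totals of 63 and 20 counts, and cells with 2 rule counts had 59 and 18. There were 93 and 46 cells just inside the threshold and 180 and 207 just outside it. Rule counts made up at least 5% of all counts in 149 of 257 members of section 1 and 64 of 68 of section 2.

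**Figure D2:**
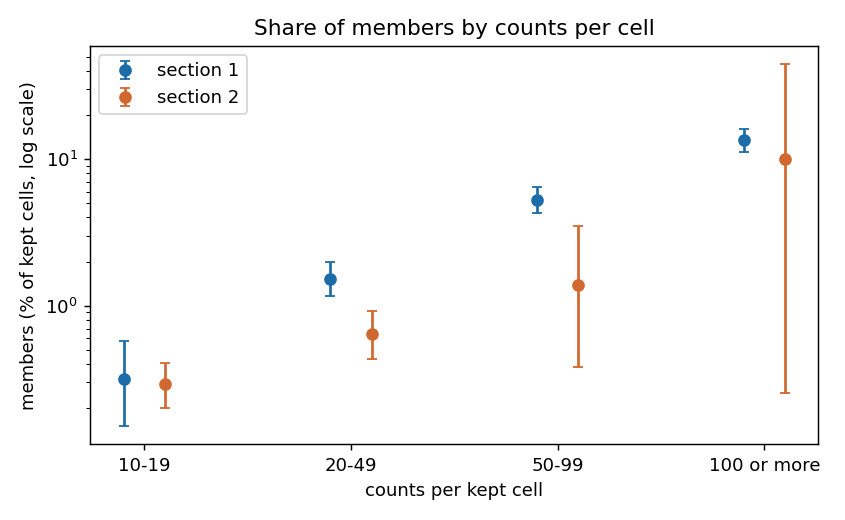
Members as a percentage of kept cells (vertical axis, log scale) by the number of counts per kept cell (horizontal axis), with exact 95% binomial intervals for counting error. In section 1 the share climbs to 13.4% at 100 or more counts, while the corresponding point of section 2 rests on 1 member.

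The rule missed many marker transcripts. Members held 52.8% of the rule counts found inside segmented cells in section 1 and 9.09% in section 2. Of decoded rule transcripts 30.3% and 27.8% lay outside any cell, against 40.1% and 34.4% for all 500 genes. For Clec4f the shares outside cells were 44.1% and 32.4%.

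Genes that the rule did not use were compared between members and all other kept cells by edgeR's quasi-likelihood test on raw counts summed per section and class, with the section as a block. Members contributed 25630 and 1404 counts outside the rule genes, and other kept cells 361958 and 296895. Of 419 genes tested 14 were called (3.34%), 12 higher (2.86%) and 2 lower (0.477%) in members at a Benjamini-Hochberg adjusted p under 0.05, and 81 had an unadjusted p under 0.05. The p-values measure counting error and the disagreement of the 2 sections, with that spread pooled across genes, not spread between animals. The main test used TMM scaling factors over all tested genes. They were 1.02 for members and 1.03 for other kept cells in section 1, and 1.32 and 0.716 in section 2. Log2 changes include these factors, whereas levels and folds do not, so a log2 change can lie outside the folds of both sections. The number of calls depended on the scaling. With TMM scaling factors computed over the 83 most abundant genes the same test gave 39 higher and 63 lower, without TMM it gave 52 and 42, and with summed cell volume as the offset 65 and 0. These scalings put the median log2 change of all tested genes at -0.29, -0.06 and 0.57, against -0.15. All 14 genes were also called with the abundant-gene factors. Without TMM all 12 higher and both lower genes were called again, and with the volume offset the 12 higher genes.

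Phagocyte genes led the list. Ctsc, which encodes the lysosomal protease cathepsin C, had 102 counts in members of section 1 and 11 in section 2. Its level was 39.8 per 10000 counts outside the rule genes in members against 4.92 in other kept cells of section 1, and 78.3 against 4.72 in section 2. The fold was 8.09 (95% interval for counting error 6.28 to 10.4) and 16.6 (8.11 to 30.7), and the log2 change was 3.07 ± 0.48 (SE, edgeR adjusted p = 1.2e-07). Members stood above other cells in both sections.

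Mpeg1, which encodes the pore-forming protein perforin-2 of phagocytes, had 120 and 3 counts in members, a fold over other kept cells of 7.74 in section 1 (6.14 to 9.71) and 4.26 in section 2 (0.868 to 12.7). Its log2 change was 2.56 ± 0.50, and its interval in section 2 includes 1.

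Mrc1, the mannose receptor gene, was 4.25-fold higher in members of section 1 and 12.7-fold higher in section 2 on 101 and 5 member counts. Cyba, which encodes a membrane subunit of the phagocyte NADPH oxidase, was 3.35-fold and 4.84-fold higher on 89 and 15 counts. Galc, the gene of the lysosomal enzyme galactosylceramidase, had 19 and 2 member counts and folds of 3.83 and 6.04, and its interval in section 2 (0.718 to 22.7) includes 1. These 3 genes had log2 changes of 2.25 ± 0.50, 1.61 ± 0.45 and 1.91 ± 0.59.

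Itgal, which encodes the alpha chain of the leukocyte integrin LFA-1, was the most abundant of the called genes. It had 437 and 20 counts in members, was found in 175 of 257 and 16 of 68 of them, and was 5.37-fold (4.80 to 6.0) and 6.79-fold (4.12 to 10.6) higher than in other kept cells. Cd44, the hyaluronan receptor gene, had 33 counts in members of section 1 and 1 in section 2, so its fold of 3.20 in section 2 has an interval of 0.0799 to 18.5. Irf7, an interferon regulatory factor gene, was 4.21-fold higher in section 1 and 9.19-fold in section 2 on 51 and 7 counts. Cdkn1a, which encodes the cell cycle inhibitor p21, was 4.88-fold and 5.19-fold higher on 66 and 4 counts, and no member held more than 4. Their log2 changes were 2.20 ± 0.56 for Itgal, 2.42 ± 0.49 for Cd44, 2.15 ± 0.49 for Irf7 and 2.11 ± 0.49 for Cdkn1a.

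Of the 12 higher genes 6 had under 5 member counts in section 2, with Mpeg1, Cd44, Galc and Cdkn1a among them. The called genes not yet described also rested mainly on section 1. Ccr2, the chemokine receptor gene of inflammatory monocytes, had 24 member counts there, 3.57-fold above other kept cells, and 0 in section 2, where 0.0993 counts would be reached at the level of other cells. Coro2a had 41 and 0 member counts. Of the 2 lower genes Mmut, which encodes the mitochondrial enzyme methylmalonyl-CoA mutase, had 14 member counts in section 1 at 0.274 times the level of other kept cells (0.149 to 0.463) and 0 in section 2, where 2.21 would be reached at that level. Ace had 5 member counts in section 1 at 0.191 times the level of other cells and 1 in section 2 at 5.42 times (0.134 to 32.0), so its 2 sections lay on opposite sides of 1.

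**Figure D3:**
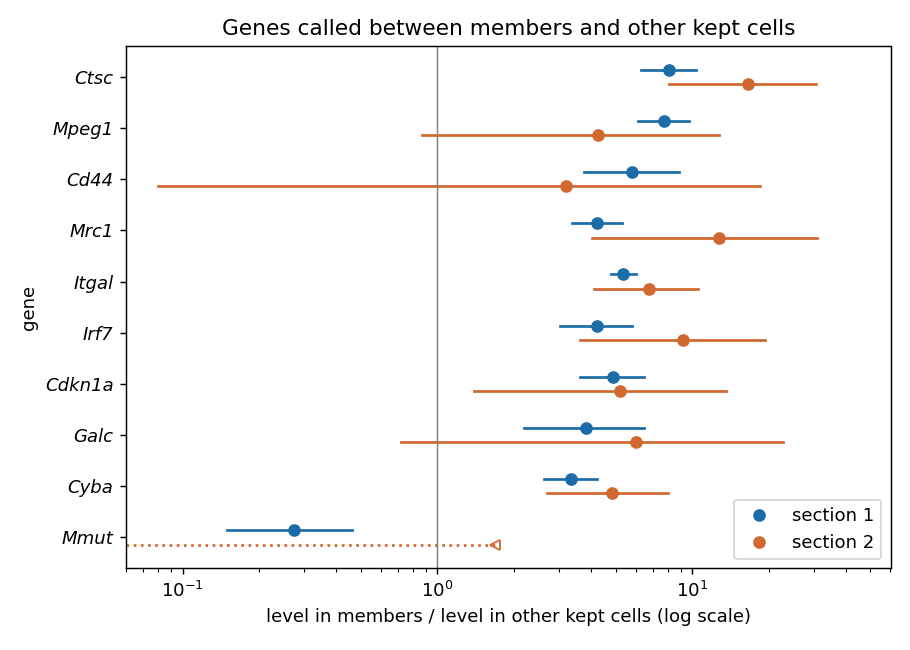
Level in members divided by level in other kept cells (horizontal axis, log scale) for called genes with 1 direction in both sections, with exact 95% intervals for counting error. The points of the higher genes lie right of 1 in both sections, at 3.35 to 8.09 in section 1, and the open triangle with a dotted line marks the upper bound for Mmut in section 2, where members had 0 counts.

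Only part of the macrophage signature could be read, since the panel held 4 of 27 listed Kupffer genes outside the rule. Cybb, which encodes the catalytic subunit of the phagocyte oxidase, had 71 and 0 member counts and an edgeR adjusted p of 0.084. Ptprc, the pan-leukocyte gene of CD45, had 16 and 0, and Cd14, the endotoxin co-receptor gene, had 7 and 0, and neither was called. In section 1 the folds over other kept cells were 3.06 (2.33 to 3.96) for Cybb, 2.54 (1.39 to 4.35) for Ptprc and 3.80 (1.39 to 8.99) for Cd14. In section 2 only 0.270, 0.0851 and 0.123 counts would be reached at the level of other cells, so the 0 counts there say little. Of 4 listed genes of endocytosis and the lysosome Ctsc and Mrc1 passed. Ctsb, the cathepsin B gene, was the most abundant with 2843 and 111 member counts, 2.32 and 3.29 times the level of other kept cells, at an edgeR adjusted p of 0.61. Its adjusted p was 4.1e-05 with the abundant-gene factors and 0.020 with DESeq2. Lrp1, an endocytic receptor gene, had 1191 and 45 counts and ratios of 2.11 and 2.49, and its adjusted p was 0.61 with all genes in TMM, 0.0013 with the abundant-gene factors and 0.090 with DESeq2. The median log2 change was 1.64 over the endocytosis list, against -0.15 over all genes tested.

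Counts of called genes in a list stand against 12 of 419 higher and 2 of 419 lower over all genes tested (2.86% and 0.477%), so a list with no lower call is near that background. Among 10 integrin and adhesion genes 2 rose, Itgal and Cd44, and 0 fell, with a median log2 change of 0.49. Itgb2, which encodes the beta chain that pairs with Itgal, had 146 and 4 member counts and ratios of 2.63 and 3.73 at an edgeR adjusted p of 0.11, against 4.2e-05 with the abundant-gene factors and 0.016 with DESeq2. Vcam1, a vascular adhesion gene also present in Kupffer cells, had 162 and 5 counts and ratios of 1.72 and 2.64. Of 15 tested genes of cytokines, chemokines and their receptors only Ccr2 rose and none fell. Il6ra, the interleukin 6 receptor gene, had 215 and 4 member counts and ratios of 2.44 and 1.11. Of 5 cell cycle genes Cdkn1a rose, while Mki67, a marker of cycling cells, had 376 and 1 member counts at 0.958 and 0.305 times the level of other kept cells and was not called. None of the 7 tested niche genes was called. Notch1, a receptor gene in Kupffer cell identity, had 157 and 7 member counts and ratios of 1.64 and 3.39.

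Members also contained transcripts of other cell types. None of 21 hepatocyte genes was called with TMM over all tested genes, and their median log2 change was -1.01. That log2 change includes the TMM factors, which the summed levels below do not. With the abundant-gene factors 15 of the 21 were called lower, and DESeq2 called 10. Summed hepatocyte counts stood at 2753 per 10000 in members against 3971 in other kept cells of section 1, and 3276 against 4965 in section 2. Hp, the haptoglobin gene, alone had 1514 and 158 member counts. At least 3 hepatocyte counts were present in 84.4% of members and 84.4% of other kept cells in section 1, and in 63.2% and 91.8% in section 2. Erythroid genes summed to 96.8 per 10000 in members against 165 in other kept cells in section 1, and 49.9 against 94.3 in section 2.

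Monocyte and neutrophil genes were at 169 per 10000 in members against 86.3 in other kept cells of section 1, and at 99.7 against 42.0 in section 2. At least 3 such counts were present in 21.0% of members against 3.69% of other kept cells of section 1, where members had more counts per cell. In section 2 the shares were 1.47%, which is 1 member, and 0.481%. Ccr2, Cybb and Cxcr2 were among the genes at 0 in members of section 2. At the level of other cells Ccr2 and Cybb would reach 0.0993 and 0.270 counts there. Endothelial genes were at 126 against 89.3 and at 99.7 against 46.0, with Kdr and Tek at 0 in members of section 2. Their part in the results above was not tested. With TMM over all tested genes Ccr2 was the 1 called gene of these lists. With the abundant-gene factors 4 of 8 monocyte and neutrophil genes and 1 of 7 endothelial genes were called higher.

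**Figure D4:**
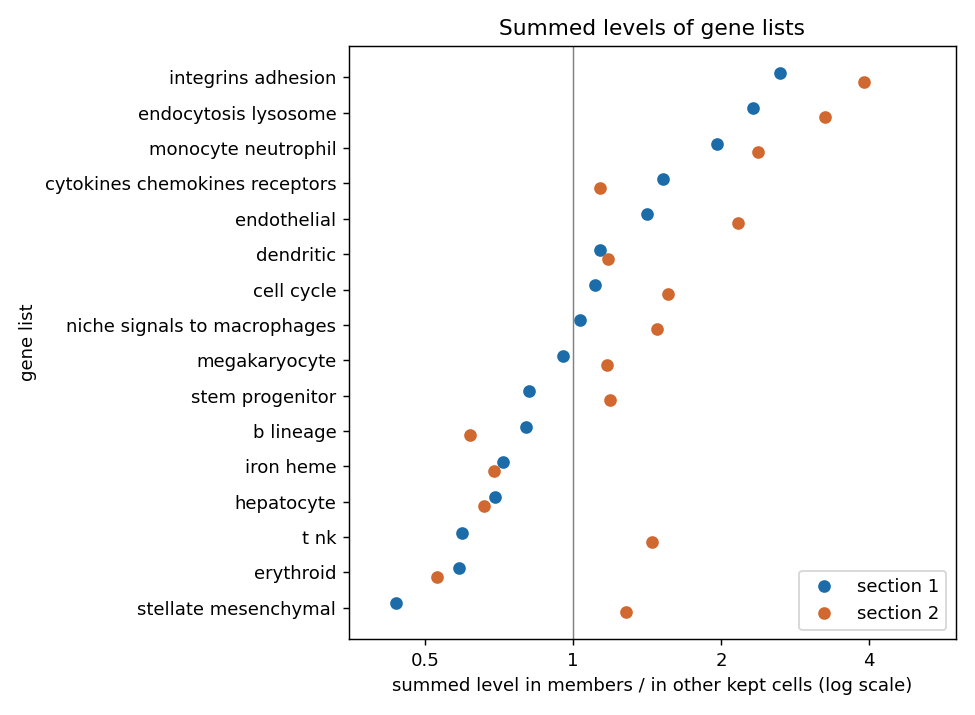
Summed level of gene lists in members divided by that in other kept cells (horizontal axis, log scale), by section. Integrin and adhesion genes lie above 1 at 2.63 in section 1 and 3.91 in section 2, and hepatocyte genes lie below 1 at 0.693 and 0.660.

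The placement of transcripts within members differed by list. Within 5 of the cell centre lay 60.9% of rule transcripts in members against 61.6% in other kept cells of section 1, and 68.8% against 54.3% in section 2. Over all genes outside the rule the shares were 45.5% in members against 61.8% in other kept cells of section 1, and 44.7% against 53.8% in section 2. For hepatocyte genes the shares in members were 36.0% and 29.6%, against 59.6% and 52.6% in other kept cells. For the endocytosis list they were 51.2% in members against 59.7% in other kept cells of section 1, and 55.8% against 52.2% in section 2. In section 1 every list of genes outside the rule had a lower share in members, while the lists went both ways in section 2. The median volume of members was 1.53 times that of other kept cells in section 1. The part of cell size in these shares was not tested. The rule transcripts of members thus lay nearer the centre than the hepatocyte transcripts of the same cells in both sections. When only transcripts within 5 of the centre were summed, the test between members and other kept cells called 1 gene, Ccr2, with 11672 and 628 member counts left.

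Over the 419 tested genes the counting interval of the ratio lay above 1 in both sections for 21 genes and below 1 in both for 10. The 10 were Apoh, Igfbp4, F2, Fga, Ambp, Upb1, Fgb, Hp, Igfbp2 and Fn1, named after their values were seen. Most encode plasma proteins that hepatocytes secrete. F2, the prothrombin gene, stood at 0.752 and 0.690 times the level of other kept cells, and Fgb, the fibrinogen beta chain gene, at 0.664 and 0.520. None of these 10 passed the edgeR test with TMM over all tested genes, whereas all 10 passed with the abundant-gene factors and 8 with DESeq2, where F2 and Ambp did not. Counting intervals leave out all other sources of spread.

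Clec4f-positive members were compared with Clec4f-zero members in the same way. The sums held 7430 and 583 counts in Clec4f-positive members against 18200 and 821 in Clec4f-zero members. Of 98 genes tested edgeR's quasi-likelihood test called 0 (0.0%) at an adjusted p under 0.05. At an unadjusted p under 0.05 there were 8 genes with edgeR and 0 with DESeq2, which also called 0.

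The 8 genes, named after their values were seen, were Cdkn1a and Vcam1 with higher and Cyba, Emilin2, Ly6c2, Notch1, Oit3 and Tgfbi with lower fitted values in Clec4f-positive members. For Ly6c2 the sections lay on opposite sides of 1. Cdkn1a had 38 counts in Clec4f-positive against 28 in Clec4f-zero members of section 1, and 3 against 1 in section 2. Its ratio of levels was 3.32 (1.99 to 5.62) and 4.22 (0.339 to 222), and the log2 change was 1.70 ± 0.24 at an edgeR adjusted p of 0.35. With the abundant-gene factors this p was 0.0077, and with DESeq2 it was 0.999. Vcam1 had 73 against 89 counts in section 1 and 4 against 1 in section 2, ratios of 2.01 (1.45 to 2.77) and 5.63 (0.557 to 277).

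Tgfbi, an extracellular matrix gene of monocytes and macrophages, had 19 counts in Clec4f-positive against 111 in Clec4f-zero members of section 1, a ratio of 0.419 (0.243 to 0.686), and 1 against 3 in section 2. Ly6c2, which marks classical monocytes, had 9 against 57 counts in section 1, a ratio of 0.387 (0.168 to 0.787), and 1 against 1 in section 2. In section 1 Clec4f-positive members could also be required to hold at least 3 counts over the other 5 rule genes, as Clec4f-zero members did. The ratio was then 4.11 for Cdkn1a (2.35 to 7.21), 2.26 for Vcam1 (1.56 to 3.24) and 0.519 for Tgfbi (0.275 to 0.908). For Notch1 it was 0.514 (0.285 to 0.867). The interval then included 1 for the other 4 genes, Ly6c2 at 0.577 (0.238 to 1.22), Cyba at 0.857 (0.456 to 1.51), Emilin2 at 0.580 (0.278 to 1.10) and Oit3 at 0.656 (0.313 to 1.25). No Clec4f-positive member of section 2 met that condition.

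Members had a median volume of 1710 against 1118 in other kept cells of section 1, and 1275 against 1261 in section 2, ratios of 1.53 and 1.01. The raw image intensity per volume in the channel named Ttr was 0.599 times the median of other kept cells in section 1 and 0.946 times in section 2. The Cellbound3 boundary stain stood at 0.652 and 0.917, and Cellbound2 at 0.925 and 0.921. The DAPI stain of nuclei stood at 0.913 in section 1 and 1.14 in section 2. With 2 sections no exact test can pass 0.05, so these ratios carry no test.

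Members occupied more tiles in section 1, which held 257 members against 68 in section 2, and this difference in number was not adjusted for. In tiles of 500 by 500 with at least 20 kept cells, 52 of 64 tiles of section 1 and 32 of 70 of section 2 held a member, and the highest share in a tile was 7.5% and 2.33%. The nearest other member lay at a median distance of 65.7 from a member of section 1, against 94.3 from other kept cells to their nearest member. In section 2 the distances were 121 and 192. In section 1 members made up 4.47% of the kept neighbours within 30 of a member (60 of 1341), against 2.35% around other kept cells. In section 2 none of 617 neighbours of a member was a member, against 0.514% around other kept cells, a difference that was not tested. The neighbours of members held a median of 45 counts against 29 around other kept cells in section 1, and 18 against 17 in section 2. The part of this depth in these neighbour shares was not tested. The same holds for the neighbour classes below, which need at least 3 marker counts. These classes include members that reach 3 such counts. In section 1 21.0% of members and 3.69% of other kept cells did so for monocyte or neutrophil genes, and 14.8% and 3.40% for endothelial genes. The part of the spacing of members in these shares was not tested.

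Cells with at least 3 endothelial counts made up 5.67% of neighbours of members against 3.40% around other kept cells in section 1, and 0 of 617 against 0.253% in section 2. Cells with at least 3 monocyte or neutrophil counts made up 5.37% against 3.58%, and 0.648% against 0.392%. Cells with at least 3 counts of collagen and other mesenchymal genes made up 3.65% against 5.07%, and 1.62% against 1.89%. The last 2 classes lay in the same direction in both sections within 30, where the monocyte or neutrophil share of section 2 rested on 4 of 617 neighbours. Within 20 no monocyte or neutrophil cell was among 249 neighbours of members in section 2, against 0.382% around other kept cells. Within 50 mesenchymal cells of section 2 made up 2.09% around members against 2.08% around other kept cells. Cells with at least 3 erythroid counts made up 8.28% against 6.42% in section 1 and 0.486% against 0.739% in section 2.

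The share of Clec4f-positive members was read along the lobule, the unit of liver tissue that runs from the portal vein to the central vein. Position was the log2 ratio of pericentral genes (Glul, Cyp2e1, Gulo) to periportal genes (Pck1, Ass1, Hsd17b13) in kept cells within 50 that were not members. Members with at least 5 such neighbours were ordered by it and split into 3 groups of like size, which left out 43 members of section 1 and 4 of section 2. In section 1 the share was 23.6% in the periportal, 23.9% in the middle and 26.8% in the pericentral group (17 of 72, 17 of 71 and 19 of 71 members). In section 2 it was 54.5%, 47.6% and 42.9% (12 of 22, 10 of 21 and 9 of 21). The exact intervals of the outer groups overlapped in both sections, at 14.4 to 35.1 and 16.9 to 38.6 in section 1 and 32.2 to 75.6 and 21.8 to 66.0 in section 2, so no order could be read at this number of cells. The nearest member of a Clec4f-positive member was itself Clec4f-positive in 13 of 65 cells of section 1 and 15 of 33 of section 2, against 48 of 192 and 12 of 35 for Clec4f-zero members.

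**Figure D5:**
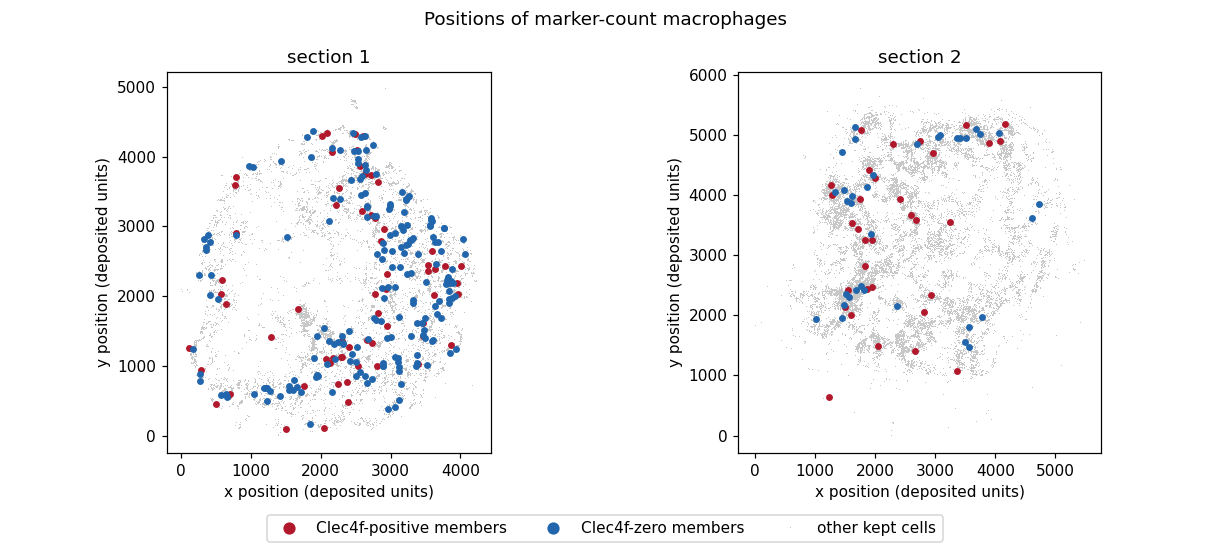
Positions of Clec4f-positive members (red), Clec4f-zero members (blue) and other kept cells (grey) in each section, in deposited units of length. Both kinds of member occur in each section, with 65 and 192 cells in section 1 and 33 and 35 in section 2. Of tiles with at least 20 kept cells, 52 of 64 in section 1 and 32 of 70 in section 2 held a member.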

How the data were processed

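MERFISH counts of 500 genes and 50 blank barcodes per segmented cell were used as deposited, with raw transcript counts per the file headers. Volume, position and raw image intensity (brightness summed over each cell) were taken as deposited, and the file headers name no unit of length. The sources used here do not name the decoding or segmentation software. Recounting the transcripts gave the same counts for all cells, and the sections shared 0 cell identifiers. Segmented cells held a median of 4 and 3 counts, and blanks took 0.910% and 0.390%. No cell had a volume under 50, and no doublet caller was run.

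Counts without the 6 rule genes and blanks were summed per section and class (4 sums, 1 residual degree of freedom) and tested with edgeR 4.0.16 (TMM, at least 50 counts, Benjamini-Hochberg at 0.05). The classes of a section share its number because they come from the same section, which was the block. DESeq2 1.42.0 was an alternative. Intervals are exact at 95% and cover counting error only.

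The written plan named TMM without its genes. TMM over all tested genes was run first. On simulated counts for members against other cells it recovered 0%, 18.8% and 58.8% of genes changed by 1, 2 and 3 on the log2 scale, and called 0 of 312 unchanged genes, so a gene that was not called may still differ. The size of 3 was added to this check after sizes 1 and 2 had shown few recoveries. Factors over genes with at least 3 expected counts recovered 11.4%, 68.8% and 88.2%. These factors were picked from 3 scalings after the first calls had been seen, were used for a time in place of the first, and are given here as an alternative. For the Clec4f comparison the recovered shares were 12.5%, 87.5% and 100% with all genes and 37.5%, 100% and 100% with abundant genes, at 2.94% and 4.41% of 68 unchanged genes called.

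Named genes were the rule genes, up to 15 higher and 10 lower called genes with 1 direction in both sections, and up to 4 genes per list with most member counts. Some items that are in these totals are not reported here. The members and lists were chosen with earlier results of these data known.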

Additional observations from a re-analysis of the deposited data

How the results depend on the processing

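The number of genes called between members and other kept cells, 12 higher and 2 lower, moved with most choices. DESeq2 gave 24 lower, no TMM 52 higher and 42 lower, the volume offset 65 and 0, a minimum of 200 summed counts 30 and 24, at least 2 rule counts 21 and 17, and transcripts near the centre 1 and 0. No genes were lower with no filter on low counts or with at least 20 counts per cell (0 each), and 4 were lower against cells with 0 rule counts. Without the replicate block 1 gene was higher, Ctsc, and 0 lower. Alternatives chosen after seeing the data were TMM over abundant genes with 39 and 63, rule counts of at least 5% of a cell with 1 lower, and cells with at most 60 counts with 33 lower. The cause was not tested. None of the 14 called genes changed direction under any of these. A DESeq2 adjusted p existed for 9 of the 14, and all 9 were called. The edgeR test of Clec4f-positive against Clec4f-zero members called 1 higher gene with abundant-gene TMM, the volume offset (Cdkn1a in both), at least 2 rule counts (Col1a1), cells with at most 60 counts and at least 2 Clec4f counts (Vcam1 in both), and 1 lower gene near the centre (Thbs1). The other choices that could be fitted gave 0, no replicate block included; the one that asks at least 3 other rule counts of both classes could not be fitted. With 1 section left out no test exists, and each gene has only the ratio of the section kept. The member share was 4.75% and 1.69% of kept cells with at least 2 rule counts, 1.29% and 0.0737% with at least 5, and 4.09% and 0.707% with at least 20 counts per cell. The Clec4f-positive share of section 1 was 9.14% after thinning, and that of section 2 was 83.3% with at least 5 rule counts, on 12 members. With at least 20 counts per cell the log2 ratio of medians was 0.0018 for DAPI in section 1, -0.063 for volume in section 2, and -0.080 and -0.14 for Cellbound2, the first 2 of opposite sign to the values reported. Among neighbours within 50, the log2 ratio was -0.22 for mesenchymal cells in section 1, 0.0092 for those in section 2, which is a reversal, and 0.21 for monocyte or neutrophil cells in section 2. Members and endothelial cells of section 2 had 0 neighbours within 30 and so no ratio there, and within 50 they made up 0.358% around members against 0.535% around other kept cells and 0.179% against 0.262%. Within 20 the log2 ratio was -0.58 for mesenchymal cells in section 2, and no monocyte or neutrophil cell was among the 249 neighbours of members there. The pericentral minus periportal Clec4f-positive share reversed to -7.89 points in section 1 at a radius of 100, and was -27.6 and -36.4 points in section 2 at 30 and 100. The 1404 member counts of section 2 limit every value there, and 191 of 419 tested genes had 0 counts in its members.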
